A study of Mus musculus with 10 samples.

Results

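The voltage-gated calcium and sodium channel genes were taken as the protein-coding genes of the count table whose symbols begin with Cacna1 or Cacna2d, or with Cacnb or Cacng and a digit, or that read Scn, a number and a or b. The rule found 39 genes among 35275 in the table, of which 22026 are protein-coding. The pore-forming subunits numbered 19, with 10 Cacna1 genes and 9 sodium channel alpha genes. The accessory subunits numbered 20, with 4 Cacna2d, 4 Cacnb, 8 Cacng and 4 sodium channel beta genes. Scn2a1, another sodium channel pore gene, does not have a symbol of that form and is given separately.

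The libraries came from retinas of C57BL/6 mice of 10 to 12 weeks. The 5 vigabatrin libraries came from mice given 140 mg/kg/day by a subcutaneous osmotic pump for 11 days, and the 5 vehicle libraries carry the treatment label vehicle and the title word untreated. Vigabatrin is an antiepileptic drug that irreversibly blocks GABA transaminase and so slows the breakdown of the inhibitory transmitter GABA, and it is known for damage to the retina. No label ties a library to its own animal, so the spread behind each p-value may be technical. Total counts ran between 36056135 and 54052502 per library, and the channel genes together held 0.341% to 0.387% of them. Summed rod markers, at 52400 to 57300 CPM (counts scaled to a common library total) in vigabatrin libraries and 53500 to 58500 CPM in vehicle libraries, matched the tissue label. The lens marker sum was 12112 to 18619 CPM in 4 libraries, vigabatrin 2344 and 2429 and vehicle 835 and 1582, and at most 922 CPM in the other 6. Values of single libraries are listed in the order 2344, 2347, 2349, 2428 and 2429 for vigabatrin and 832, 835, 1580, 1582 and 2345 for vehicle, by their title numbers.

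A voltage-gated calcium channel is built on a single pore protein encoded by a Cacna1 gene, which opens on depolarisation and lets calcium in. An intracellular beta subunit (Cacnb) and an extracellular alpha2delta subunit (Cacna2d) carry the pore to the membrane and tune its gating. The Cacng genes encode membrane proteins first found as a calcium channel subunit of muscle, and most of those expressed in neurons are transmembrane AMPA receptor regulatory proteins (TARPs), which escort AMPA-type glutamate receptors. Sodium channels likewise combine a pore protein (Scn genes ending in a) with small adhesion-like beta subunits (Scn genes ending in b). In the retina, photoreceptors and bipolar cells release glutamate continuously at ribbon synapses through L-type calcium channels, whereas ganglion cells and some amacrine cells fire sodium action potentials.

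None of the channel genes passed the threshold of an adjusted p under 0.05 between vigabatrin and vehicle retinas. After the filter on low counts, 36 of the 39 were tested, 18 pore and 18 accessory, among 17435 genes. By edgeR's quasi-likelihood test 0 of 36 were called, against 1 of all genes tested (0.00574%). The smallest adjusted p of a channel gene was 0.494. DESeq2's Wald test and limma-voom also called 0 channel genes. At an unadjusted p under 0.05, 6 channel genes had a higher mean in vigabatrin retinas (16.7%, against 3.68% of all genes tested) and 1 had a lower mean (2.78%, against 3.69%). The 6 were the TARP genes Cacng4, Cacng2 and Cacng5, the T-type pore gene Cacna1i and the sodium beta genes Scn2b and Scn3b. Only Cacng4 had 5 vigabatrin libraries all above the 5 vehicle libraries (2.78% of channel genes, against 0.849% of all genes tested), and no channel gene had them all below (against 0.631%).

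The differences were small and the precision was high. Across the 35 tested channel genes with a mean of at least 1 CPM, every 95% interval of the log2 fold change lay between -0.30 and 0.49. The median standard error was 0.061 for channel genes. Vigabatrin means were above vehicle means for 28 of 36 genes, with a median log2 fold change of 0.05, against -0.001 over all genes tested. Pore genes had a median of 0.05, with 15 higher and 3 lower, and accessory genes had a median of 0.04, with 13 higher and 5 lower. With 1 library left out, the pore median ran between 0.028 (without vehicle 1582) and 0.080 (without vehicle 2345), and the accessory median between 0.020 (without vigabatrin 2349) and 0.072 (without vigabatrin 2344). At an unadjusted p under 0.05, 1 of 18 pore genes was higher (5.56%) and 0 were lower. Of 18 accessory genes, 5 were higher (27.8%) and 1 was lower (5.56%). Over all genes tested the shares were 3.68% higher and 3.69% lower, and whether the families differ was not tested.

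**Figure D1:**
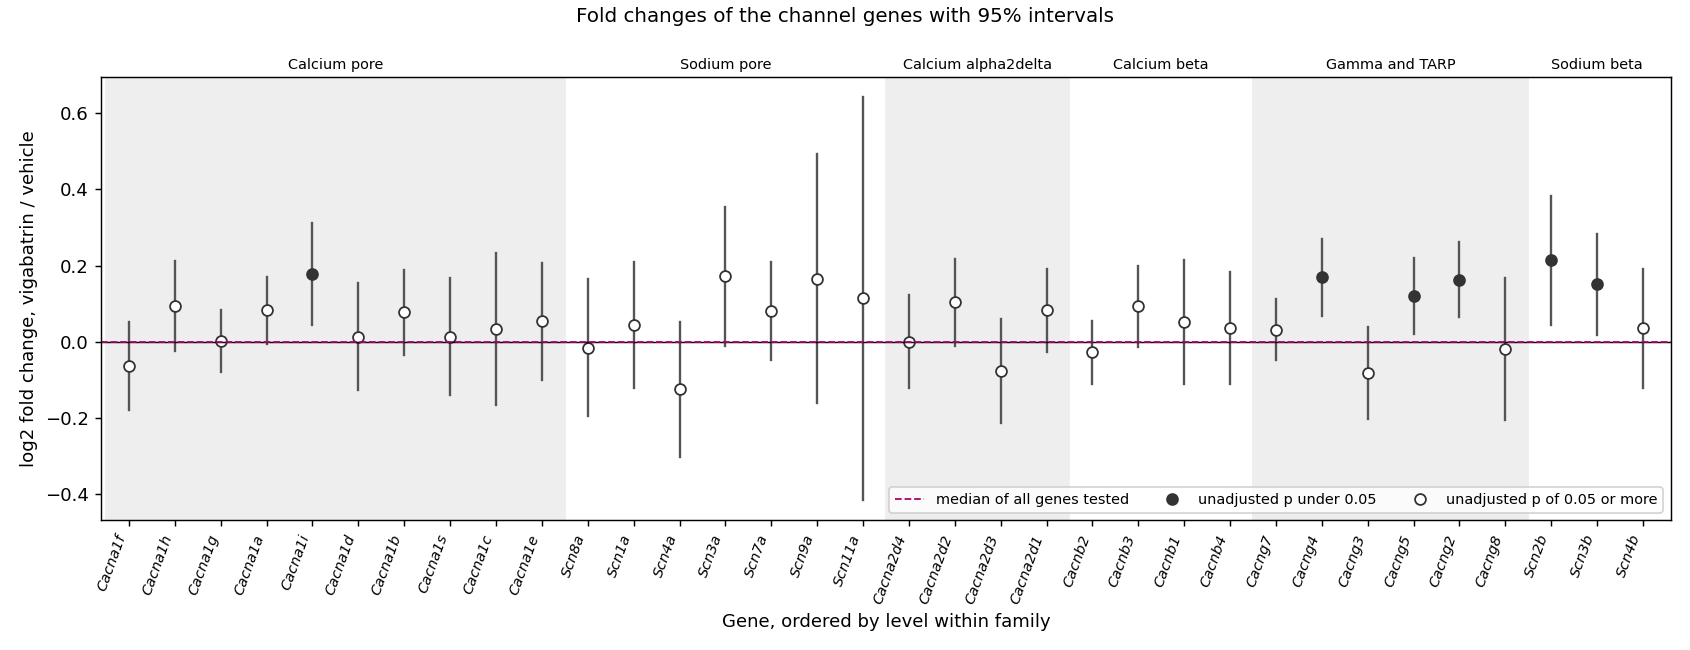
The log2 fold change of vigabatrin over vehicle (y axis) is plotted for 34 tested channel genes, grouped by family and ordered by level, with lines for 95% intervals and filled circles for an unadjusted p under 0.05. Of 6 filled circles, 3 are TARP genes, and all points lie between -0.12 and 0.21.

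The count of 28 higher genes moved with single libraries of both groups. It was 23 without vigabatrin 2428 and 23 without vehicle 835, and 24 on leaving out vigabatrin 2349, vigabatrin 2429 or vehicle 1582 alone. It rose to 30 without vigabatrin 2347 and to 29 without vehicle 832 or vehicle 2345. In lens-rich vehicle 835 the median channel gene lay 0.104 log2 units below its mean over all libraries, and in lens-rich vehicle 1582 it lay 0.082 below. In the lens-rich vigabatrin libraries 2344 and 2429 it lay 0.012 and 0.016 above. Vehicle 835 was the lowest library for 13 channel genes and vehicle 1582 for 8, and vigabatrin 2349 was the highest for 10. Summed pigment epithelium markers were 367 and 66.8 CPM in lens-rich vigabatrin 2344 and 2429, against 937 and 281 CPM in lens-rich vehicle 835 and 1582. Smooth muscle and pericyte markers summed to 316 and 128 CPM in those vigabatrin libraries, against 414 and 273 CPM in those vehicle libraries. Without the 4 lens-rich libraries, 20 channel genes were higher and 16 lower, the pore median was -0.004 and the accessory median 0.06. With lens and pigment epithelium levels as terms, 21 were higher and 15 lower, the pore median was 0.02 and the accessory median 0.03. Only 1 vehicle library, 2345, has a title number above 2000, as all vigabatrin libraries do. With that range (above or below 2000) added to the fit, 15 were higher and 21 lower, and the pore median was -0.04. That fit in effect compares the vigabatrin libraries with vehicle 2345 alone. Every value given with the title range in the fit therefore rests on 1 vehicle library. What the numbers stand for is not given, and the part that lens, pigment epithelium or smooth muscle content or the numbering plays in the result was not tested.

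**Figure D2:**
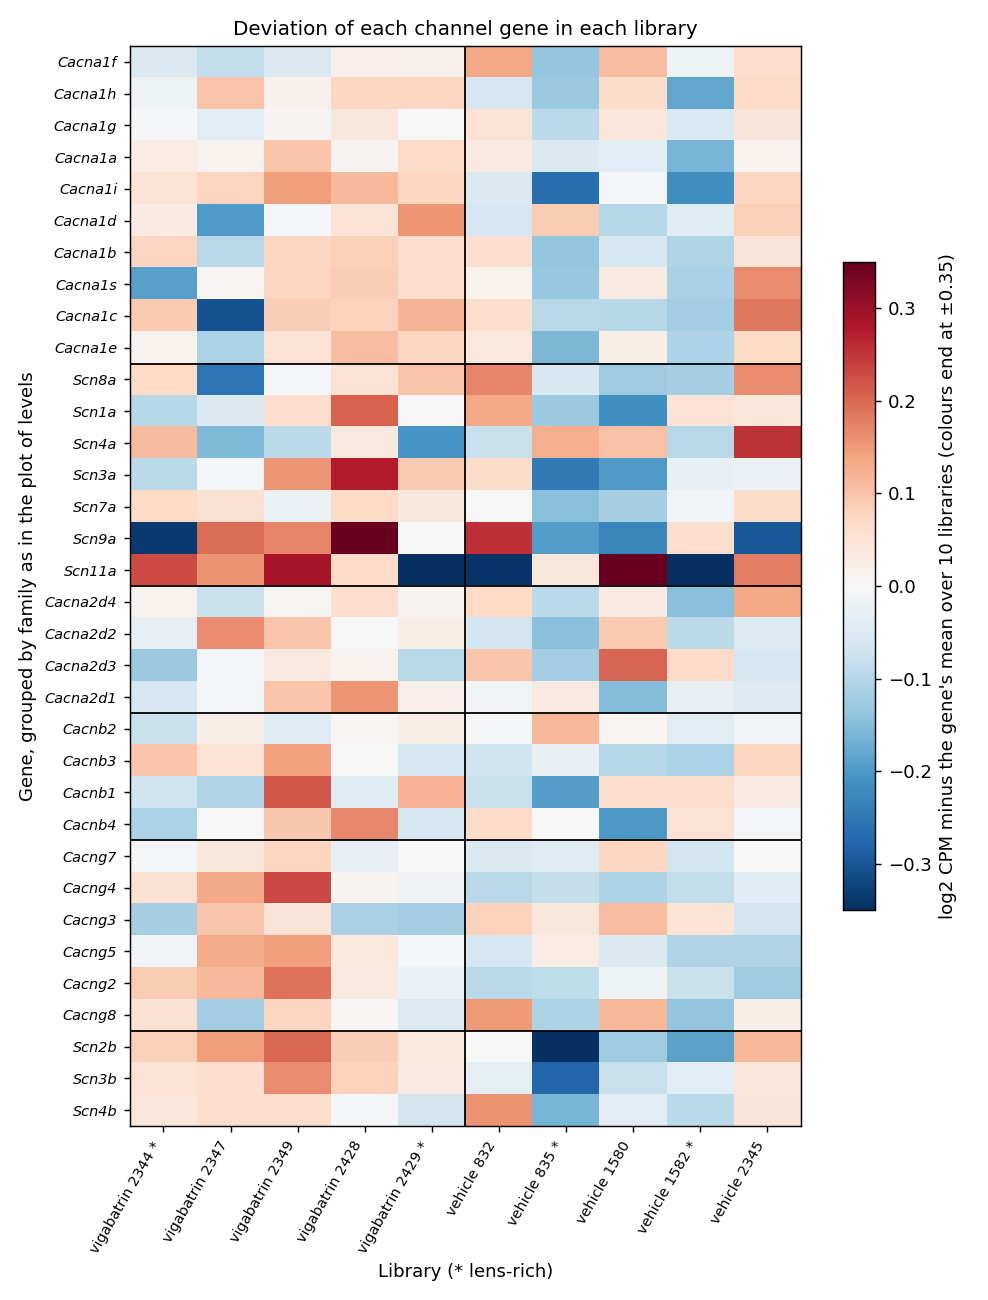
The colour shows the log2 CPM of 34 channel genes (rows) in each library (columns, vigabatrin left, vehicle right) minus the gene's mean over 10 libraries; asterisks mark lens-rich libraries. The columns of vehicle 835 and vehicle 1582 are mostly blue, with medians of -0.104 and -0.082 over all tested channel genes, and vigabatrin 2349 is mostly red, with a median of 0.074.

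Levels set out which channels the retina transcribes, on the scale of CPM per kb of deposited gene length, which may differ from the transcripts used in retina. Cacna2d4, the alpha2delta subunit of photoreceptor synapses, was the most abundant at 114 CPM per kb over all libraries. Cacna1f, the L-type pore of photoreceptor ribbon synapses, followed at 102 CPM per kb, and the ranges of both genes overlapped. Cacng7, a TARP gene, came next at 82.9 CPM per kb, below every library's value of Cacna1f on this scale. The deposited lengths of Cacna2d4, Cacna1f, Cacng7 and Cacnb2 are 5803, 6622, 2207 and 3945 bases. Their exons in GENCODE M21 cover 9478, 9089, 2441 and 13228 bases, so the order of these genes depends on the length used. Cacnb2, the beta subunit known from photoreceptor terminals, had 45.1 CPM per kb and Cacna1h, a T-type pore, 43.5 CPM per kb, with overlapping ranges. Scn8a, the main pore of mature axon initial segments, led the sodium pores at 14.6 CPM per kb.

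The order from Cacna2d2 at 26.4 CPM per kb was a continuum in which neighbours overlapped between libraries down to Scn3b at 5.13 CPM per kb. It ran through Cacng4, Cacna1g, Cacnb3, Scn2b, Cacna2d3, Cacng3, Scn8a, Cacna1a, Cacng5, Cacnb1, Cacna1i, Scn1a, Cacna2d1, Cacna1d, Cacng2, Cacna1b, Scn4a and Cacna1s. Cacnb4, Cacng8, Scn4b, Scn3a, Scn7a and Cacna1c followed at 3.34 down to 1.70 CPM per kb. Cacna1e stood clear of its neighbours at 0.784 CPM per kb, as did Scn9a, a pore known from sensory neurons, at 0.475 CPM per kb. Scn11a was tested with at most 17 counts in a library. Scn10a, like Scn11a a pore of pain-sensing neurons, had at most 5 counts, Cacng1, the gamma subunit of muscle, at most 9, and Cacng6 at most 4. These 3 genes did not pass the filter on low counts.

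**Figure D3:**
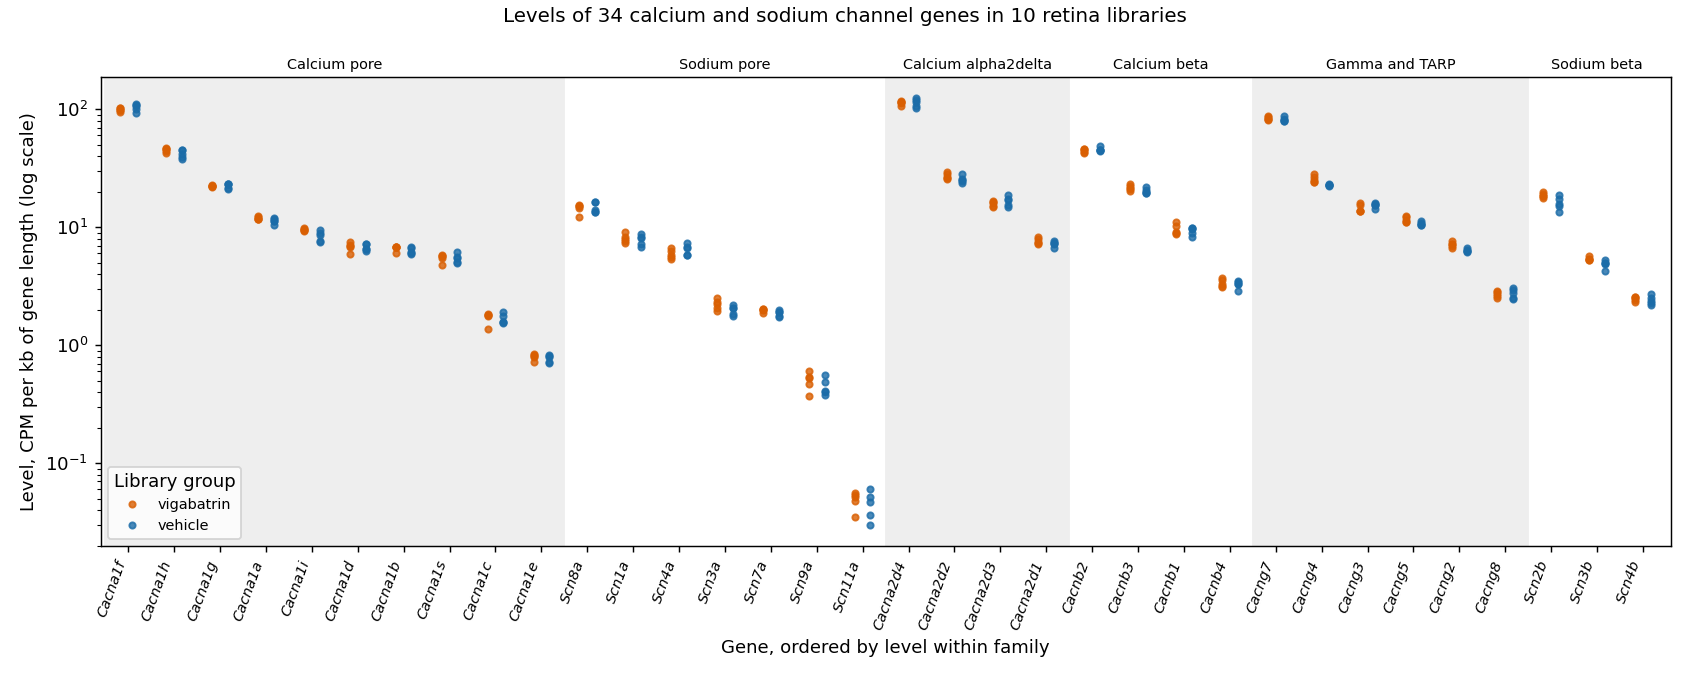
Levels in CPM per kb (log axis) are shown for 34 tested channel genes in each of 5 vigabatrin libraries (left, orange) and 5 vehicle libraries (right, blue), grouped by family. Cacna2d4, Cacna1f and Cacng7 lead at 114, 102 and 82.9 CPM per kb, and the groups lie close together for each gene compared with the distance between genes.

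Some neighbouring genes on a chromosome had very different levels (mm10). Scn3a and Scn7a, of 1 cluster on chromosome 2, instead overlapped between libraries at 2.10 and 1.92 CPM per kb. Cacng7, Cacng8 and Cacng6 lie on the same strand within 102.7 kb of chromosome 7 (3332955 to 3435667), and their mean levels were 82.9, 2.73 and 0.014 CPM per kb. Cacng1, Cacng4 and Cacng5 lie within 211.8 kb of chromosome 11 (107703218 to 107915055), where Cacng1 was near 0 beside Cacng4 at 24.2 CPM per kb and Cacng5 at 11.2 CPM per kb.

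The L-type pore genes Cacna1f, Cacna1d, Cacna1c and Cacna1s had log2 fold changes of -0.06 to 0.03. Cacna1f (chromosome X, 7607083 to 7635196) had 650, 634, 650, 682 and 680 CPM in vigabatrin libraries, against 739, 613, 726, 664 and 702 CPM in vehicle libraries. Only vehicle 835 and vehicle 1582, both lens-rich, were not above every vigabatrin library, at 613 and 664 CPM. The lens-rich vigabatrin libraries 2344 and 2429, at 650 and 680 CPM, lay within the range of the other vigabatrin libraries. The part of lens content in these levels was not tested. The log2 fold change was -0.06 ± 0.05 (SE), with a 95% interval of -0.18 to 0.05 and an unadjusted p of 0.248. Without the 4 lens-rich libraries it was -0.14, with an unadjusted p of 0.0103 and an adjusted p of 0.603. Cacna1d and Cacna1c, pores of neurons and heart, ranged over 53.6 to 68.4 and 18.0 to 24.1 CPM in vigabatrin libraries, against 57.4 to 65.4 and 20.5 to 25.3 CPM in vehicle libraries.

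Cacna1s and Scn4a, known as the calcium and sodium pores of skeletal muscle, were both present in retina. Cacna1s had 29.9 to 36.2 CPM in vigabatrin libraries and 31.1 to 38.3 CPM in vehicle libraries. Scn4a had 44.1, 36.7, 38.3, 41.7 and 35.4 CPM in vigabatrin libraries, against 38.7, 44.6, 43.8, 38.1 and 48.6 CPM in vehicle libraries. The groups overlapped, with vigabatrin below the vehicle mean in 4 of 5 libraries, and the log2 fold change was -0.12 ± 0.08 (SE; unadjusted p = 0.151). With the title range in the fit, which leaves vehicle 2345 as the only vehicle library compared, it was -0.31. The 9 skeletal muscle markers summed to 6.53 to 7.80 CPM in vigabatrin libraries and 6.47 to 7.23 CPM in vehicle libraries. Their highest counts in a library were 130 for Actn3, 127 for Mylpf, 105 for Acta1 and 81 for Ckm. They were 12 for Tnnt3, 3 for Tnni2 and 2 for each of the myosin genes Myh1, Myh2 and Myh4. The part of muscle content in the levels of Cacna1s and Scn4a was not tested. An antisense gene, Gm37759, overlaps 20% of the exon bases of Cacna1s in GENCODE M21 and has no row of its own in the table, and counting was not stated to use strand, so its reads cannot be told apart from those of Cacna1s.

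The promoters of Cacna1f, the leading pore gene, and of Cacna1s, a muscle pore gene present in this tissue, are printed to show the sequence at their starts (RefSeq, GRCm38.p6, plus strand, 250 bases before the start to 50 after). They lie at chrX:7606853-7607152 and chr1:136052561-136052860. Capitals mark TAATCC, the core motif of the photoreceptor factor CRX, searched on both strands.
Cacna1f: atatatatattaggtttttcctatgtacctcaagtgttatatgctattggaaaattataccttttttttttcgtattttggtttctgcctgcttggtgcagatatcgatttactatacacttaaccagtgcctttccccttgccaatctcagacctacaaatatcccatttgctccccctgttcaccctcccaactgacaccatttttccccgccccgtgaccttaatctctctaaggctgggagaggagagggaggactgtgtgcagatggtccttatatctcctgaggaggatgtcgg
Cacna1s: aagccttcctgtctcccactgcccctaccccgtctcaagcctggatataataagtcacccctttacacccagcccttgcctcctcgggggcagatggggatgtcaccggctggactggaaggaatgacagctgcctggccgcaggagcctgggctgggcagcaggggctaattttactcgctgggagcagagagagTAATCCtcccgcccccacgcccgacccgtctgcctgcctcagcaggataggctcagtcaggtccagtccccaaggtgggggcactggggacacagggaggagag
Cacna1s held the motif once, at bases 197 to 202, and Cacna1f did not hold these letters in this window. The motif was in 4 of 39 promoters of the 29 channel genes matched in the RefSeq promoter set (10.3%), against 7.06% of 32851 promoters of the same length. The motif was chosen after the levels were seen, and a match is a description of the sequence.

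The neuronal pores of P/Q, N and R type, which trigger fast transmitter release, had log2 fold changes of 0.05 to 0.08. Cacna1a had 93.8, 93.0, 98.6, 92.8 and 96.5 CPM in vigabatrin libraries, against 94.1, 89.0, 89.9, 82.4 and 93.0 CPM in vehicle libraries. Every vigabatrin library was above the vehicle mean, but 3 lay below the highest vehicle library, and the log2 fold change was 0.08 ± 0.04 (SE; unadjusted p = 0.0621), or 0.04 without the 4 lens-rich libraries and 0.03 with the title range in the fit. Cacna1b ranged over 59.0 to 66.8 CPM in vigabatrin libraries and 57.4 to 65.7 CPM in vehicle libraries. Cacna1e ranged over 10.8 to 12.6 CPM in vigabatrin libraries and 10.5 to 12.3 CPM in vehicle libraries.

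Among the T-type pores, which open near rest and shape bursts and bipolar cell responses, Cacna1i had the clearest difference. Cacna1i (chromosome 15, 80287238 to 80398279) had 90.2, 92.0, 96.7, 94.4 and 92.0 CPM in vigabatrin libraries, against 84.3, 72.7, 87.1, 75.3 and 92.0 CPM in vehicle libraries. Vehicle 2345 reached the vigabatrin range, and the other 4 vehicle libraries lay below every vigabatrin library, with lens-rich 835 and 1582 lowest. The log2 fold change was 0.18 ± 0.06 (SE; 95% interval 0.04 to 0.31, unadjusted p = 0.0136, adjusted p = 0.569). It was 0.11 without the 4 lens-rich libraries (unadjusted p = 0.0530) and 0.02 with the title range in the fit.

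Cacna1h had 353, 383, 361, 375 and 376 CPM in vigabatrin libraries, against 343, 326, 374, 315 and 374 CPM in vehicle libraries. Its groups overlapped and the log2 fold change was 0.09 ± 0.05 (SE; unadjusted p = 0.107), which was 0.04 without the 4 lens-rich libraries and -0.02 with the title range in the fit. Cacna1g ranged over 183 to 193 CPM in vigabatrin libraries and 176 to 194 CPM in vehicle libraries.

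The sodium pore genes showed no unadjusted p under 0.05 among 8 tested, against 3.68% higher and 3.69% lower over all genes tested. Scn3a, the pore most known from the developing brain, had 18.7, 19.9, 22.3, 24.3 and 21.3 CPM in vigabatrin libraries, against 20.9, 16.8, 17.4, 19.7 and 19.7 CPM in vehicle libraries. The groups overlapped and the log2 fold change was 0.17 ± 0.08 (SE; unadjusted p = 0.0623). Scn1a, a pore of ganglion cells and interneurons, had 62.0, 64.2, 69.2, 76.7 and 66.5 CPM in vigabatrin libraries, against 73.1, 60.7, 57.3, 68.8 and 68.4 CPM in vehicle libraries. The libraries were intermixed, with a log2 fold change of 0.04 ± 0.08 (SE; unadjusted p = 0.563), which was -0.01 with the title range in the fit.

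Scn8a had 172, 138, 164, 170 and 176 CPM in vigabatrin libraries, against 185, 158, 151, 151 and 184 CPM in vehicle libraries. Vigabatrin 2347 was the lowest of all 10, and the log2 fold change was -0.02 ± 0.08 (SE; unadjusted p = 0.856), turning to 0.04 without vigabatrin 2347. Scn7a, a sodium-sensing channel of glia and other cells, ranged over 13.8 to 14.8 CPM in vigabatrin libraries and 12.7 to 14.7 CPM in vehicle libraries. Scn9a ranged over 3.66 to 5.99 CPM in vigabatrin libraries and 3.75 to 5.51 CPM in vehicle libraries. Scn2a1, the pore gene outside the naming rule, averaged 47.4 ± 4.8 CPM in vigabatrin libraries and 44.1 ± 4.0 CPM in vehicle libraries (SD), with a log2 fold change of 0.10 ± 0.08 (SE; adjusted p = 0.821).

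The alpha2delta genes, whose products bind gabapentin-type drugs in the case of Cacna2d1 and Cacna2d2, did not pass the adjusted threshold. By edgeR with the group as the only term, their unadjusted p-values in all 10 libraries were also above 0.05. Cacna2d1 had an unadjusted p under 0.05 by limma-voom and without the 4 lens-rich libraries. Cacna2d2 had one without vigabatrin 2344 (edgeR, 0.0459) and without vehicle 1580 (edgeR, 0.0123). Cacna2d4 had 663, 624, 661, 686 and 663 CPM in vigabatrin libraries, against 691, 616, 671, 594 and 723 CPM in vehicle libraries. The libraries were intermixed and the log2 fold change was 0.001 ± 0.055 (SE; 95% interval -0.12 to 0.12). Its sign changed under several alternatives, the largest shift being -0.13 with the title range in the fit. Cacna2d2 had 150, 172, 164, 153 and 156 CPM in vigabatrin libraries, against 146, 138, 163, 144 and 148 CPM in vehicle libraries. Vehicle 1580 reached into the vigabatrin range and the others lay below it, with a log2 fold change of 0.10 ± 0.05 (SE; unadjusted p = 0.0692).

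Cacna2d3 had 54.7, 59.6, 61.3, 60.2 and 55.9 CPM in vigabatrin libraries, against 63.9, 54.9, 68.8, 62.6 and 57.4 CPM in vehicle libraries. All vigabatrin libraries lay below the vehicle mean within an overlapping range, and the log2 fold change was -0.08 ± 0.06 (SE; unadjusted p = 0.238), which was 0.02 with the title range in the fit. Cacna2d1 ranged over 53.4 to 61.9 CPM in vigabatrin libraries and 50.1 to 56.9 CPM in vehicle libraries.

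The beta subunit genes were close between groups. Cacnb2 had 169, 181, 173, 179 and 181 CPM in vigabatrin libraries, against 177, 193, 179, 173 and 177 CPM in vehicle libraries. Its libraries were intermixed apart from a high vehicle 835, and the log2 fold change was -0.03 ± 0.04 (SE; unadjusted p = 0.476). Cacnb3, a beta subunit of many neurons, had 63.0, 61.0, 65.0, 59.1 and 56.7 CPM in vigabatrin libraries, against 56.2, 57.9, 55.1, 54.6 and 62.0 CPM in vehicle libraries. The groups overlapped, with a log2 fold change of 0.09 ± 0.05 (SE; unadjusted p = 0.0809) that was -0.02 with the title range in the fit. Cacnb1 and Cacnb4 ranged over 29.9 to 37.4 and 25.4 to 30.8 CPM in vigabatrin libraries, against 28.1 to 33.5 and 23.9 to 28.7 CPM in vehicle libraries. The antisense gene A430018G15Rik overlaps 16% of the exon bases of Cacnb4.

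The TARP genes held the smallest p-values of all channel genes. Cacng4 (chromosome 11, 107732357 to 107794557) had 87.8, 92.8, 99.3, 85.2 and 83.9 CPM in vigabatrin libraries, against 79.1, 79.8, 78.5, 79.7 and 82.1 CPM in vehicle libraries. The lowest vigabatrin library was above the highest vehicle library, and vehicle libraries were tightly grouped. The means were 89.8 ± 6.3 CPM in vigabatrin libraries and 79.9 ± 1.4 CPM in vehicle libraries (SD), a log2 fold change of 0.17 ± 0.05 (SE; 95% interval 0.07 to 0.27, unadjusted p = 0.00340, adjusted p = 0.494). It was 0.21 without the 4 lens-rich libraries and 0.13 with the title range in the fit, which leaves vehicle 2345 as the only vehicle library compared. In bulk samples, fewer or more cells of a type and less or more RNA per cell cannot be told apart. Among markers of cell types that receive glutamate, 5 of 7 amacrine and 7 of 9 ganglion cell genes had a higher vigabatrin mean. So did 2 of 6 bipolar and 1 of 4 horizontal cell genes, and 49.4% of all genes tested. In each list 0 genes were called, and the median log2 fold changes were 0.07, 0.04, -0.04 and -0.01 in that order. The amacrine genes Tfap2b, Chat and Tfap2a had log2 fold changes of 0.20, 0.19 and 0.11. Their unadjusted edgeR p-values were 0.00078, 0.0126 and 0.0258, and 3.68% of all genes tested were higher under 0.05. Tfap2b was higher without overlap, against 0.849% of all genes tested. The amacrine genes Gad1 and Th had lower vigabatrin means, with log2 fold changes of -0.025 and -0.0289. Summed levels in vigabatrin libraries were 780 to 843 CPM for amacrine, 936 to 1080 for ganglion, 1460 to 1550 for bipolar and 71.4 to 82.4 for horizontal cells. Those in vehicle libraries were 729 to 801, 915 to 1030, 1500 to 1600 and 74.0 to 85.3 CPM for the same cell types, and their part in the result was not tested.

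Cacng2 (chromosome 15, 77991748 to 78120028), which encodes stargazin, the TARP mutated in the stargazer mouse, had 39.5, 40.1, 42.3, 38.0 and 36.55 CPM in vigabatrin libraries, against 34.8, 34.9, 36.64, 35.1 and 34.1 CPM in vehicle libraries. The groups were separate but for vigabatrin 2429, which lay just under vehicle 1580. The log2 fold change was 0.16 ± 0.05 (SE; 95% interval 0.06 to 0.26, unadjusted p = 0.00394, adjusted p = 0.494). It was 0.19 without the 4 lens-rich libraries (unadjusted p = 0.00604). With the title range in the fit, which leaves vehicle 2345 as the only vehicle library compared, it was 0.21. The antisense gene A730060N03Rik overlaps 5.86% of its exon bases and averaged 1.52 CPM in vigabatrin libraries and 1.55 CPM in vehicle libraries.

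Cacng5, on chromosome 11 beside Cacng4, had 41.0, 45.2, 45.7, 42.4 and 41.1 CPM in vigabatrin libraries, against 39.6, 42.0, 39.9, 38.4 and 38.4 CPM in vehicle libraries. Only vehicle 835 reached the vigabatrin range, and the log2 fold change was 0.12 ± 0.05 (SE; unadjusted p = 0.0234, adjusted p = 0.611). Cacng5 kept an unadjusted p under 0.05 without the 4 lens-rich libraries. It lost it with the title range in the fit and with a length and GC content trend removed. It also lost it on leaving out vigabatrin 2347, vigabatrin 2349, vehicle 1582 or vehicle 2345 alone. Cacng3, another TARP gene, went the other way in its means, with 38.2, 44.3, 42.7, 38.3 and 38.0 CPM in vigabatrin libraries, against 43.8, 42.5, 44.6, 42.8 and 39.6 CPM in vehicle libraries. These libraries overlapped, and the log2 fold change was -0.08 ± 0.06 (SE; unadjusted p = 0.167), which was 0.03 with the title range in the fit. Cacng7 had 182, 188, 193, 179 and 183 CPM in vigabatrin libraries, against 176, 177, 192, 175 and 183 CPM in vehicle libraries. The Cacng7 groups overlapped, with a log2 fold change of 0.03 ± 0.04 (SE; unadjusted p = 0.398). Cacng8 ranged over 4.76 to 5.45 CPM in vigabatrin libraries and 4.70 to 5.74 CPM in vehicle libraries.

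Scn2b (chromosome 9, 45117876 to 45130070), which links to the pore by a disulfide bond and raises its surface level, had 83.8, 87.3, 90.8, 83.8 and 81.1 CPM in vigabatrin libraries, against 79.1, 61.5, 72.4, 69.4 and 85.6 CPM in vehicle libraries. Vehicle libraries were spread widely, with lens-rich 835 lowest and 2345 inside the vigabatrin range. The log2 fold change was 0.21 ± 0.08 (SE; 95% interval 0.04 to 0.38, unadjusted p = 0.0177, adjusted p = 0.597). It was 0.14 without the 4 lens-rich libraries (unadjusted p = 0.0511) and -0.004 with the title range in the fit. Scn3b, outside the naming rule for full values and given after its values were seen, ranged over 23.6 to 25.9 CPM in vigabatrin libraries and 19.1 to 23.8 CPM in vehicle libraries (log2 fold change 0.15 ± 0.06 SE, unadjusted p = 0.0296). The lowest library of Scn3b was lens-rich vehicle 835. The log2 fold change of Scn3b was 0.12 without the 4 lens-rich libraries (unadjusted p = 0.0756). It was 0.12 with lens and pigment epithelium levels as terms (unadjusted p = 0.0723) and 0.03 with the title range in the fit. It was 0.14 with a length and GC content trend removed (unadjusted p = 0.0912). Without vigabatrin 2349 it was 0.13 (unadjusted p = 0.0787). Scn4b, known for resurgent sodium current, ranged over 11.6 to 12.6 CPM in vigabatrin libraries and 10.8 to 13.5 CPM in vehicle libraries.

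**Figure D4:**
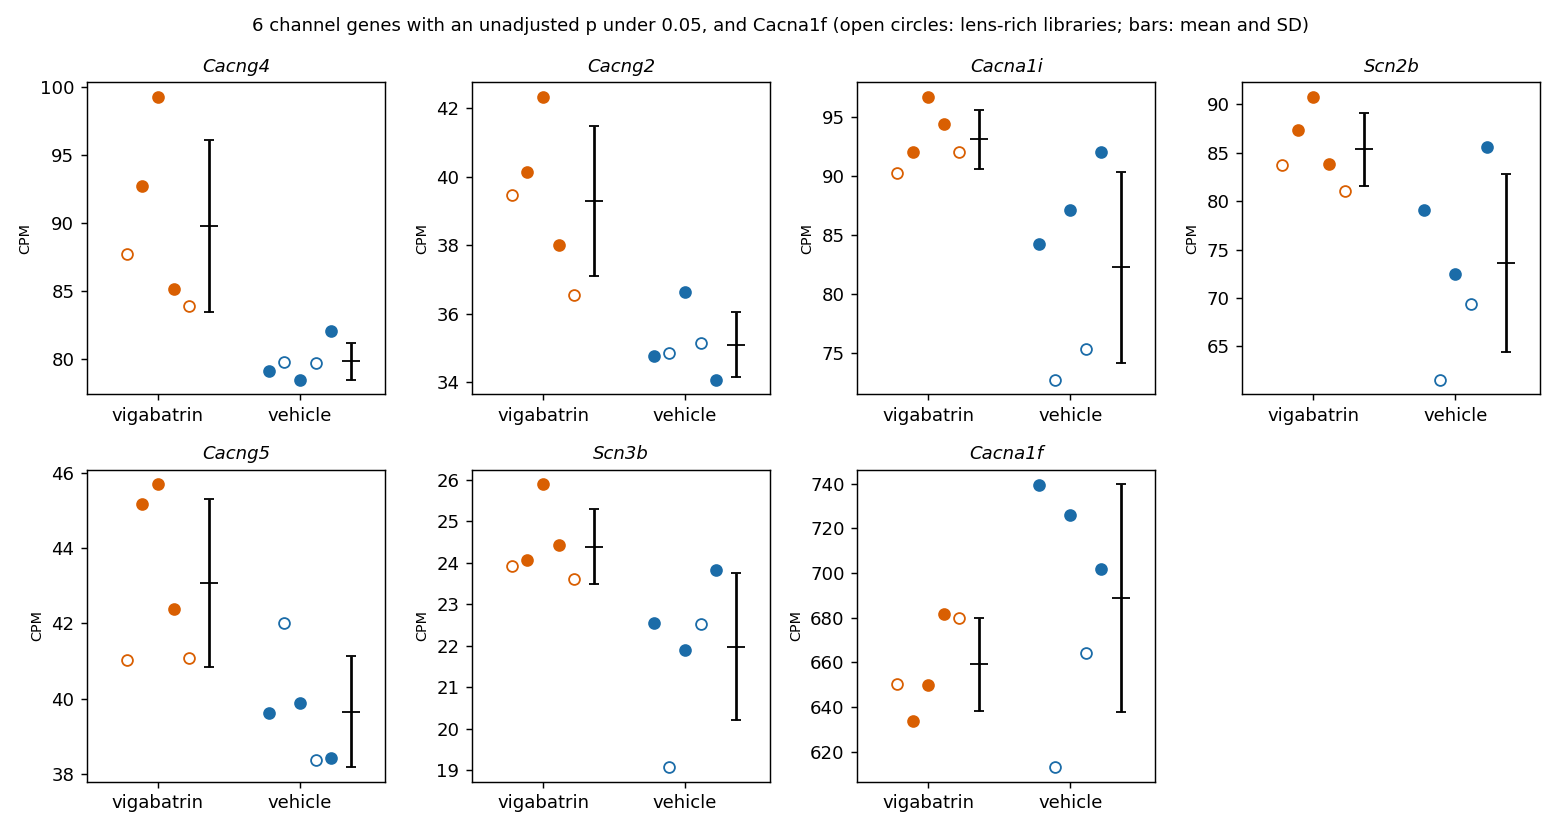
CPM in each library is shown for the 6 channel genes with a higher vigabatrin mean and an unadjusted p under 0.05 and for Cacna1f, vigabatrin left (orange) and vehicle right (blue), with the mean and SD in black and open circles for lens-rich libraries; the y axes do not start at 0. Cacng4 is separate between groups, at 83.9 to 99.3 CPM in vigabatrin libraries and 78.5 to 82.1 CPM in vehicle libraries, while the lens-rich vehicle 835 is the lowest vehicle point of Cacna1i, Scn2b, Scn3b and Cacna1f.

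The summed levels of the calcium pore and alpha2delta families differed by less than the SD between libraries. The Cacna1 sum was 209.9 ± 5.0 CPM per kb in vigabatrin libraries and 209.2 ± 12.9 CPM per kb in vehicle libraries (SD). The Cacna2d sum was 164 ± 3 CPM per kb in vigabatrin libraries and 163 ± 10 CPM per kb in vehicle libraries (SD). The Cacng sum was 145.6 ± 6.0 CPM per kb in vigabatrin libraries and 140.1 ± 3.6 CPM per kb in vehicle libraries (SD). A gene's share of its family sum is a measure in which the scaling between libraries cancels.

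Of the 39 shares of a family sum, 5 were higher in every vigabatrin library than in any vehicle library (Cacna1h, Cacna1i, Cacng2, Cacng4 and Scn2b) and 1 was lower (Cacna1f). Shares within a family add to 100% and so are not independent, no other gene families were counted to read this number against, and no test was made of the shares. No Cacna2d or Cacnb share was separate between groups. Cacna1f made up 46.7% to 47.8% of the Cacna1 sum in vigabatrin libraries and 48.1% to 51.1% in vehicle libraries. Cacna1i made up 4.38% to 4.73% in vigabatrin libraries and 3.87% to 4.31% in vehicle libraries. Cacng4 made up 17.02% to 18.43% of the Cacng sum in vigabatrin libraries and 15.3% to 16.8% in vehicle libraries.

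Genes linked to these channels, not all of whose products bind them, were read from 2 partner lists, chosen with earlier results of these data known. The sodium list also held Nalcn, Unc79 and Unc80. Of 20 calcium channel partners tested, 11 had a higher and 9 a lower vigabatrin mean, with 0 called and a median log2 fold change of 0.02. At an unadjusted p under 0.05, 0 were higher (against 3.68% of all genes tested) and 2 lower (10%, against 3.69%). Rem2, a small GTPase that holds back calcium channels, had 1.145 to 1.501 CPM in vigabatrin libraries and 1.90 to 2.42 CPM in vehicle libraries, without overlap. It was the 1 gene of this list that was lower without overlap, against 0.631% of all genes tested. Rem2 was listed with its result in these data already known, so the shares of lower genes are not a result about the list. The log2 fold change of Rem2 was -0.73 ± 0.12 (SE; edgeR adjusted p = 0.179), and DESeq2's Wald test gave an adjusted p of 0.00196. Cabp1, a calcium sensor that binds L-type pores, had 151 to 164 CPM in vigabatrin libraries and 164 to 179 CPM in vehicle libraries, with a log2 fold change of -0.13 ± 0.04 (SE; adjusted p = 0.501). The active zone genes Rims1 and Rimbp2, which tether calcium channels at release sites, had log2 fold changes of 0.11 and 0.13 (adjusted p = 0.705 and 0.744).

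Of 14 sodium channel partners tested, 11 had a higher and 3 a lower vigabatrin mean, with 0 called and a median log2 fold change of 0.03. At an unadjusted p under 0.05, 3 were higher (21.4%, against 3.68% of all genes tested) and 0 lower (against 3.69%). Fgf14, an intracellular FGF that binds the tail of sodium pores, had 10.0 to 11.8 CPM in vigabatrin libraries and 8.29 to 9.64 CPM in vehicle libraries, without overlap. It was the 1 gene of this list that was higher without overlap (7.14%, against 0.849% of all genes tested). Its log2 fold change was 0.25 ± 0.08 (SE; adjusted p = 0.501). Fgf13, of the same family, had a log2 fold change of 0.14 ± 0.06 (SE; adjusted p = 0.611), Fgf11 had -0.10 (adjusted p = 0.793), and the ubiquitin ligase gene Nedd4l had -0.08 (adjusted p = 0.737).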

How the data were processed

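Raw counts per gene were deposited for 10 mouse retina libraries. Per the submitters' processing notes, HTSeq 0.6.1 and build mm10 were used, and DESeq2 and edgeR 3.16.5 are named too. Not given in the sources used here: aligner, annotation release, strandedness. RNA was extracted with Qiazol, per the labels' protocols. The table held 1 count column that matches no sample, and it was not used.

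After filterByExpr and TMM scaling, all genes were tested in edgeR 4.0.16 (quasi-likelihood F test, group as the only term, Benjamini-Hochberg adjustment over 17435 genes, threshold 0.05; limma 3.58.1, R 4.3.3), after a check on simulated counts. CPM uses TMM library sizes, and CPM per kb divides it by the deposited gene length per 1000 bases. The standard error (SE) is the log2 fold change over the root of F. No library repeated another (8.47 to 141.5 chi-square per degree of freedom between pairs). DESeq2 1.42.0, limma-voom, other scalings and filters, covariates and left-out libraries were alternatives. Promoters came from RefSeq (GRCm38.p6) and exon overlaps from GENCODE M21. Full values are given for the 4 genes of smallest p per direction among pore and among accessory genes, any whose groups do not overlap, and the 2 most abundant of each family; partners are named for the 2 smallest p per direction. Counts cover all 39 channel genes, of which 2 are not reported individually here. The genes, lists and tests were chosen with earlier results of these data known.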

Additional observations from a re-analysis of the deposited data

Results flagged for a closer look

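Of 88 groups of 5 libraries examined (channel genes and the partner genes named, within each treatment group), 4 had a single library standing well apart, and about 4.4 would by chance. Cacna1b had 59.0 CPM in vigabatrin 2347, against 65.7 to 66.8 CPM in the other vigabatrin libraries. Cacna1c had 18.0 CPM in vigabatrin 2347, against 23.5 to 24.1 CPM in the others. Cacnb4 had 23.9 CPM in vehicle 1580, against 27.3 to 28.7 CPM in the other vehicle libraries. Cacnb2 had 193 CPM in vehicle 835, against 173 to 179 CPM in the other vehicle libraries.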

How the results depend on the processing

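In all 21 alternatives 0 channel genes were called. Over all genes, 0 were called with library size scaling alone, without the filter, with the title number range or the lens and pigment epithelium levels as terms, without the 4 lens-rich libraries and after a length and GC content trend was removed (added after seeing the data), 84 were called by DESeq2's Wald test, 3 by limma-voom, and 0 to 39 when 1 library was left out, the 39 without vehicle 2345. Channel genes with an unadjusted p under 0.05 numbered 7 at first, where 1284 of all 17435 genes tested had one. With the title range in the fit they numbered 2 (Cacng2 and Scn4a), where 343 of all 17435 genes did. After the length and GC trend was removed they numbered 3 (Cacng2, Cacng4 and Scn2b), where 965 of all 17307 genes did. In the other alternatives they numbered 5 to 9, where 954 to 1976 of all genes did. Cacng2 was among them in every alternative, and Cacng4 in every one except the title number range. The title number range moved the pore median to -0.0418, and all values of that fit compare the vigabatrin libraries with vehicle 2345 alone. Channel genes whose groups do not overlap numbered 2 (Cacng2 and Cacng4) with library size alone, upper quartile scaling or a mean CPM of at least 1 (1.39%, 1.52% and 1.53% of all genes), 8 of 36 without the lens-rich libraries (3 libraries per arm, where 13.6% of all genes did not overlap) and 1 to 4 when 1 library was left out (2.09% to 4.85% of all genes). They were not counted for other tools and fits with covariates. Of 588 alternative values of 28 named genes, 562 kept direction and side of the threshold, 25 changed sign and 1, Rem2 by DESeq2's Wald test, passed the threshold at -0.73. The title number range turned Cacna1h to -0.0175, Scn1a to -0.0145, Cacna2d3 to 0.0233, Cacna2d4 to -0.1321, Cacnb3 to -0.0243, Cacng3 to 0.0273, Scn2b to -0.0039, Rimbp2 to -0.0139 and Nedd4l to 0.0472. Cacna2d4 was also at -0.0006 with DESeq2 size factors, -0.0004 by DESeq2's Wald test, -0.0127 by limma-voom, -0.0272 with lens and pigment epithelium levels as terms and -0.081 without the lens-rich libraries. With 1 library left out, Scn1a ran between -0.0036 and 0.0821, Scn8a between -0.0501 and 0.0409 and Cacna2d4 between -0.0383 and 0.0346. The causes of these shifts were not tested. No paired analysis was possible because the groups share no replicate numbers in the labels. Depth limits Scn11a, whose 95% interval ran between -0.41 and 0.64.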
